A study of Rattus norvegicus with 4 samples.

Results

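The genes described here are 10 rat genes of bone morphogenetic protein (BMP) signalling, of 15731 genes listed in all. They are the ligands Bmp2, Bmp4, Bmp6 and Bmp10, the receptors Bmpr1a, Acvr1 and Bmpr2, and the target genes Id1, Id2 and Id3. They were found by symbol alone, and the rule uses no measured value, but the 10 were chosen with earlier results of these data known. Ventricular cardiomyocytes of wild-type Wistar rats, 1 day old, were transfected with synthetic copies (mimics) of miR-25, miR-93 or miR-106b, while control cells received cel-miR-67, copied from a worm miRNA, and RNA was sequenced 72 h later. The atria had been removed and the cells pre-plated to deplete those that adhere quickly, so the cultures were enriched for cardiomyocytes but could hold other heart cells. There was 1 library per mimic, so no difference below has a replicate check and no p-value is given. Intervals are 95% exact intervals from reads recovered from the deposited values, and they cover counting error only.

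BMP ligands bind a complex of type I and type II receptor kinases at the cell surface. The activated type I receptor phosphorylates Smad1, Smad5 and Smad9, which enter the nucleus with Smad4 and switch on target genes, among them the Id genes and the inhibitory Smads that feed back on the pathway. Id proteins lack a DNA-binding region and hold their basic helix-loop-helix partners, the E proteins, off DNA. In the heart BMP signals take part in forming the cardiac field, the valves and the trabeculated muscle, and Bmp10 is a ligand made by heart muscle itself.

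The mimics fall into a pair with a shared seed and a mimic with a different seed, and Bmpr2 is a reported target of the seed family of miR-106b. The mimics were of the human miRNAs, whose sequences are not shown. The mature rat miRNAs of the same names are shown because the seed divides the mimics, with the seed (bases 2 to 8) in capitals. They are RefSeq entries on the minus strand of chromosome 12 of GRCr8, at chr12:22157103-22157123, chr12:22156894-22156916 and chr12:22156652-22156673 in the order shown.
rno-miR-106b-5p: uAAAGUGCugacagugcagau
rno-miR-93-5p: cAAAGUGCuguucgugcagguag
rno-miR-25-3p: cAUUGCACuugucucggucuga
The seed AAAGUGC was common to miR-106b and miR-93, whereas AUUGCAC of miR-25 differed from it at 4 of the 7 positions. Seed sites in the transcripts of the 10 genes were not searched here.

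The libraries held 15175185 to 18797234 reads on listed genes, which was 60.4% to 66.9% of the library sizes behind the deposited values. Values are RPKM, reads per kilobase of gene length scaled to the size of the library, so that levels can be compared between genes. A gene was tested in a comparison when its RPKM was above 1.0 in both libraries, and it is said to have risen or fallen when the RPKM ratio passed 1.3-fold, which is 0.379 on the log2 scale. Of the 10 genes, 8 were tested in every comparison, and Bmp2 and Bmp10 were under RPKM 1.0 in the control. All 8 cardiomyocyte markers examined were between RPKM 88.0 and 7073 in the control library. No marker of fibroblasts, endothelium, smooth muscle, macrophages or atrial muscle that was in the table was at 0 in any library.

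In the control library Bmpr1a and Id3 were the most abundant of the 10 genes, and Bmp2 and Bmp10 the scarcest. Bmpr1a, a type I receptor, was the most abundant at RPKM 81.7 and lay above 96.0% of all listed genes, followed by Id3 at 56.8, Id1 at 19.1 and Bmpr2, a type II receptor, at 14.1. Id2 stood at 8.37, Bmp6 at 5.36, Bmp4 at 4.32 and the type I receptor Acvr1 at 2.38. Bmp2 and Bmp10 were the lowest, at 0.801 and 0.765, and lay above 24.3% and 23.9% of genes. Counting intervals of neighbours in this order overlapped for Bmp6 and Bmp4 and for Bmp2 and Bmp10, and for no other neighbours. With miR-93, by contrast, the intervals of Bmpr1a and Id3 overlapped.

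**Figure D1:**
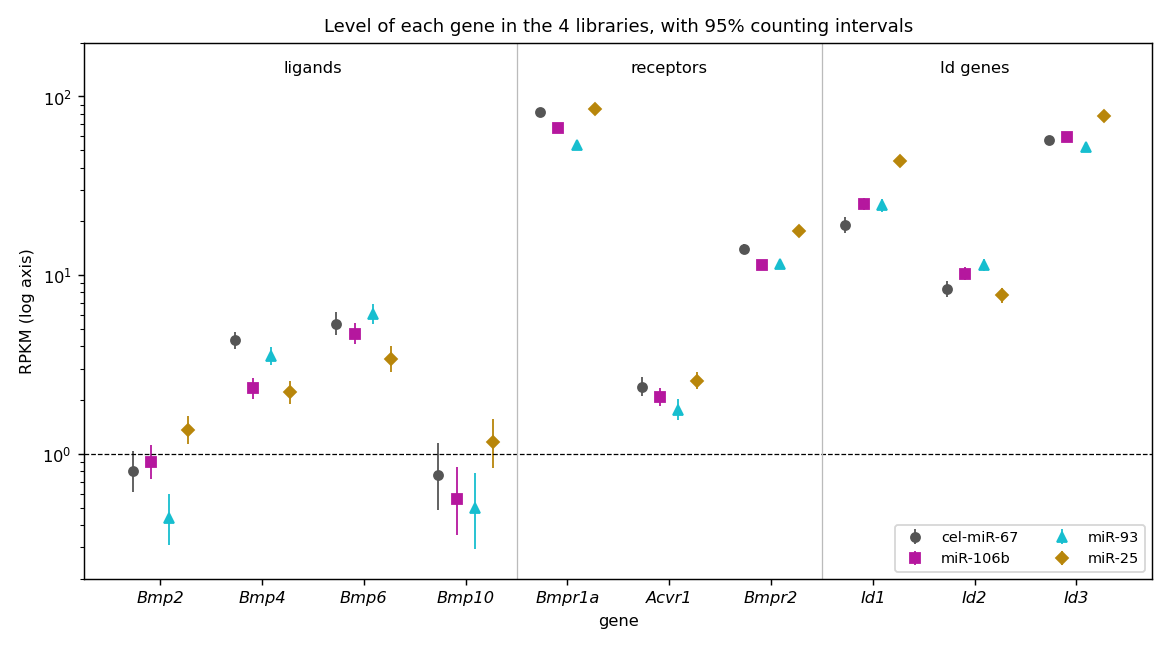
RPKM on a log axis of each of the 10 genes in the 4 libraries, with 95% Poisson counting intervals and a dashed line at RPKM 1.0. Bmpr1a and Id3 lie highest, Bmp2 and Bmp10 lie around or under the line, and Id1 is highest in the miR-25 library at 43.5 against 19.1 in the control.

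Against the control, between 2 and 4 of the 8 tested genes passed 1.3-fold with any given mimic, and Bmpr2 passed it with none. With miR-106b 1 of the 8 tested genes rose and 1 fell, where 11.9% of all 11296 tested genes rose and 12.7% fell. With miR-93 1 rose and 2 fell, where 15.1% of all tested genes rose and 15.6% fell. With miR-25 2 rose and 2 fell, against a background of 19.3% and 22.6%. On 8 genes these counts are too small to be set apart from the background. The counting interval left out 0 for 5 of 8 genes in the miR-106b comparison, 7 in that of miR-93 and 6 in that of miR-25, where the same held for 52.4%, 57.3% and 66.2% of all tested genes. The median log2 fold change of the 8 genes was -0.19 under miR-106b, -0.20 under miR-93 and 0.08 under miR-25, whereas that of all tested genes was -0.003, -0.002 and -0.01.

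**Figure D2:**
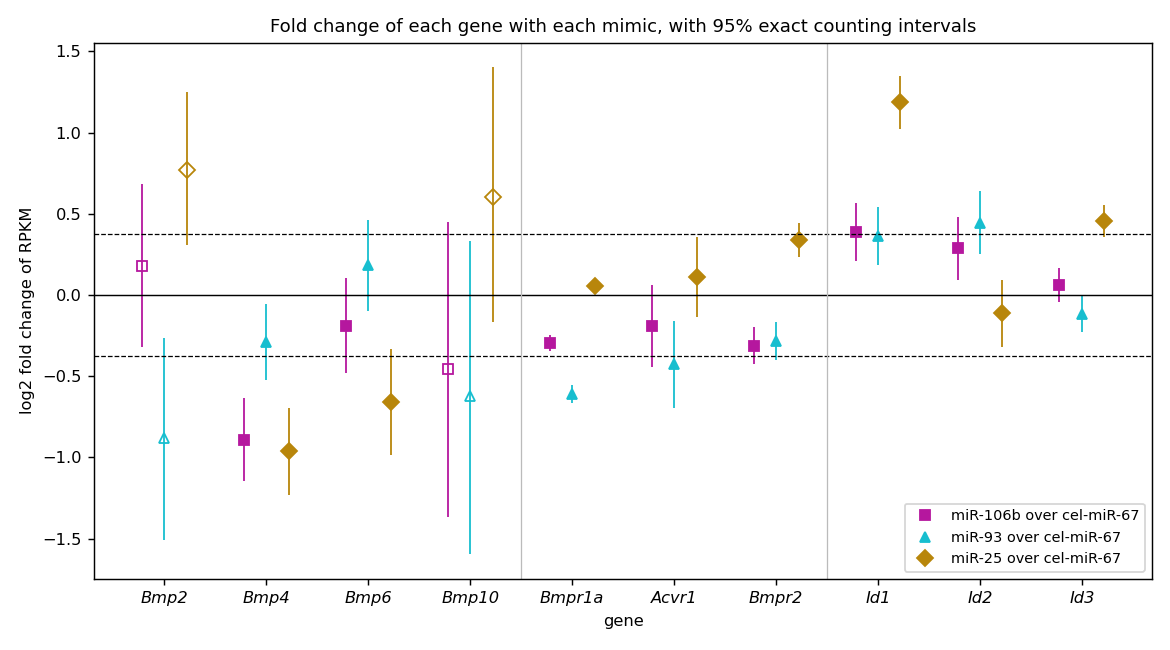
Log2 fold change of RPKM of each gene, each mimic over cel-miR-67, with 95% exact counting intervals; dashed lines mark 1.3-fold and open symbols the genes under RPKM 1.0 in the control. With miR-25 Id1 lies at 1.19 and Bmp4 at -0.96, and Bmpr2 lies under 0 with miR-106b and miR-93 and above 0 with miR-25.

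Among the ligands, Bmp4 was lower with miR-106b and miR-25, and Bmp6 with miR-25. Bmp4 (ENSRNOG00000009694), a ligand used throughout heart development, stood at RPKM 4.32 in the control, 2.33 under miR-106b, 3.54 under miR-93 and 2.22 under miR-25. It fell by 0.89 on the log2 scale with miR-106b (95% interval -1.15 to -0.64) and by 0.96 with miR-25 (-1.23 to -0.70). With miR-93 the difference was -0.29 (-0.52 to -0.05) and within 1.3-fold, so that the mimics with the same seed stood apart for this gene, with miR-93 over miR-106b at 0.60 (0.35 to 0.86).

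Bmp6 (ENSRNOG00000013717), which also signals through Acvr1, stood at 5.36 in the control, 4.71 under miR-106b, 6.09 under miR-93 and 3.40 under miR-25. It fell by 0.66 with miR-25 (-0.98 to -0.33), and its differences with miR-106b and miR-93, -0.19 and 0.18, had intervals that held 0. Cell type markers moved in every mimic library. Of 8 fibroblast markers 7 fell and 1 rose with miR-25, 5 fell and 0 rose with miR-106b, and 4 fell and 0 rose with miR-93. Their summed RPKM was 0.387, 0.776 and 0.905 of the control in that order. Of the endothelial markers, 7 of 8 were in the table and 3 were tested. Of these, 2 fell and 1 rose with miR-25 and with miR-106b, and 1 fell and 1 rose with miR-93. The sums were 0.671, 0.758 and 0.794 of the control. All 8 cardiomyocyte markers fell with miR-25, and 3 fell and 1 rose with each of the other mimics. The part of these cells in the ligand values was not tested, and in bulk RNA fewer cells of a type cannot be told apart from less RNA per cell.

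Bmp2 (ENSRNOG00000021276), the ligand closest in sequence to Bmp4, rested on few reads. It stood at RPKM 0.801 in the control, 0.905 under miR-106b, 0.436 under miR-93 and 1.37 under miR-25, from 38 to 119 reads. The miR-93 library was the lowest and the miR-25 library the highest. Log2 differences from the control were -0.88 (-1.51 to -0.26) with miR-93 and 0.77 (0.31 to 1.25) with miR-25. Bmp10 (ENSRNOG00000009316) stood at 0.765 in the control, 0.558 under miR-106b, 0.497 under miR-93 and 1.16 under miR-25, from 18 to 42 reads, and all its intervals against the control held 0. The 4 ligands summed to RPKM 11.2 in the control and to 8.50 under miR-106b, 10.6 under miR-93 and 8.15 under miR-25. This sum and the other sums by role below were added after the values had been seen.

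Each of the receptors was lowest in a library of a mimic with the seed AAAGUGC and highest with miR-25, although most differences from the control were within 1.3-fold. Bmpr2 (ENSRNOG00000022196), the type II receptor specific to BMP ligands, stood at RPKM 14.1 in the control, 11.3 under miR-106b, 11.6 under miR-93 and 17.8 under miR-25, from 1222 to 1875 reads. The 2 mimics with the seed AAAGUGC gave the lower values and miR-25 the highest, and no 2 counting intervals overlapped except those of miR-106b and miR-93. The fold of the control was 0.805 under miR-106b, 0.822 under miR-93 and 1.26 under miR-25, or -0.31 (-0.43 to -0.20), -0.28 (-0.40 to -0.17) and 0.34 (0.23 to 0.44) on the log2 scale. All 3 differences were past counting error and all 3 were within 1.3-fold, so Bmpr2 was not called against the control. Scaled to the reads on listed genes, the miR-25 difference was 0.49, past 1.3-fold, and the miR-93 difference was -0.14.

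Between mimics the contrast in Bmpr2 was larger. It was higher with miR-25 than with miR-106b by 0.65 (0.55 to 0.75) and than with miR-93 by 0.62 (0.52 to 0.73), both past 1.3-fold, and miR-93 over miR-106b was 0.03 (-0.08 to 0.14). The genes with the most similar profile over the 4 libraries, among 4045 genes with RPKM above 10 in all of them, were Dscr3, Rnf2 and Lgals8, at Euclidean distances of 0.0202, 0.0376 and 0.0591 between centred log2 RPKM values. Acvr2a, a type II receptor shared with activins, stood at 14.4, 11.2, 11.8 and 12.3 in the same order and was lower than the control in each mimic library, within 1.3-fold. The 3 type II receptors Bmpr2, Acvr2a and Acvr2b summed to 28.8, 23.3, 24.0 and 31.0.

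Bmpr1a (ENSRNOG00000052469) stood at RPKM 81.7 in the control, 66.5 under miR-106b, 53.6 under miR-93 and 85.0 under miR-25, from 4607 to 7294 reads. It was lowest with miR-93, where it fell by 0.61 (-0.67 to -0.55), and the differences of -0.30 (-0.35 to -0.24) with miR-106b and 0.06 (0.01 to 0.11) with miR-25 were within 1.3-fold. Acvr1 (ENSRNOG00000005033) stood at 2.38 in the control, 2.08 under miR-106b, 1.77 under miR-93 and 2.57 under miR-25, the same order of libraries as Bmpr1a. It fell by 0.43 with miR-93 (-0.69 to -0.16), a call that was lost when values were scaled to the reads on listed genes, and its intervals with the other mimics held 0. Bmpr1a made up 93.3% to 95.2% of the summed RPKM of the type I receptors Bmpr1a, Acvr1, Bmpr1b and Acvrl1 in every library. That sum was 86.9 in the control, 70.7 under miR-106b, 57.4 under miR-93 and 89.2 under miR-25. Of the 8 cardiomyocyte markers 3 fell and 1 rose with miR-93, with a median log2 fold change of -0.22. Their sum was 0.670 of the control, mainly through Actc1, at 7073 in the control and 2733 with miR-93, and Myl2, at 6838 and 4994. The marker sum was 0.903 of the control with miR-106b and 0.595 with miR-25, where all 8 markers fell while Bmpr1a and Acvr1 were highest. The part of cardiomyocyte content in the receptor values was not tested.

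Of the Id genes, Id1 stood out with miR-25. Id1 (ENSRNOG00000021750), a classical early target of BMP receptors, stood at RPKM 19.1 in the control, 25.0 under miR-106b, 24.6 under miR-93 and 43.5 under miR-25, from 415 to 1135 reads. The control library was the lowest, and the miR-25 library stood apart from the other mimics. Id1 rose 2.28-fold with miR-25, or 1.19 on the log2 scale (1.02 to 1.35). It lay on either side of the threshold with the other mimics, at 0.39 (0.21 to 0.57) with miR-106b, which passed it, and at 0.36 (0.18 to 0.54) with miR-93, which passed it only when scaled to the reads on listed genes. These mimics did not differ beyond counting error, with miR-93 over miR-106b at -0.02 (-0.18 to 0.13), and the value with miR-25 was higher by 0.80 (0.66 to 0.94) than with miR-106b and by 0.82 (0.68 to 0.96) than with miR-93. Map4k5, Ccng1 and Impact had the most similar profiles, at distances of 0.0250, 0.0878 and 0.0954.

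Id3 (ENSRNOG00000026124), the most abundant Id gene, was also highest with miR-25. It stood at 56.8 in the control, 59.3 under miR-106b, 52.4 under miR-93 and 77.9 under miR-25. It rose by 0.46 with miR-25 (0.36 to 0.56), and the differences of 0.06 with miR-106b and -0.12 (-0.22 to -0.01) with miR-93 were within 1.3-fold, the latter changing sign to 0.03 when scaled to the reads on listed genes.

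Id2 (ENSRNOG00000007237) differed in order from Id1 and Id3. It stood at 8.37 in the control, 10.2 under miR-106b, 11.4 under miR-93 and 7.74 under miR-25, so that the miR-93 library was highest and the miR-25 library lowest. It rose by 0.44 with miR-93 (0.25 to 0.64), was at 0.29 (0.10 to 0.48) with miR-106b and at -0.11 (-0.32 to 0.10) with miR-25, the last of which also changed sign under that scaling. Id4, the remaining Id gene and no member of the 10, fell by 0.47 (-0.74 to -0.21) with miR-106b and by 0.84 (-1.14 to -0.55) with miR-93, and was at 0.32 (0.08 to 0.56) with miR-25. The 4 Id genes summed to RPKM 90.9 in the control, 99.3 under miR-106b, 92.1 under miR-93 and 137 under miR-25. Within that sum the share of Id1 was 21.0% in the control and 31.6% with miR-25, and that of Id2 was 9.21% and 5.63%.

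Because the Id genes did not move together, the stretch of 120 bases before their RefSeq start sites is shown, with CCAAT and GGGCGG in capitals on either strand (a reverse match reads ATTGG or CCGCCC). The windows are chr3:161671444-161671563 on the plus strand for Id1, chr6:47470996-47471115 on the minus strand for Id2 and chr5:153656171-153656290 on the plus strand for Id3, all of GRCr8.
Id1: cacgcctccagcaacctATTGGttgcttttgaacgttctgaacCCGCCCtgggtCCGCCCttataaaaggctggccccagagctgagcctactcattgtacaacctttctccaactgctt
Id2: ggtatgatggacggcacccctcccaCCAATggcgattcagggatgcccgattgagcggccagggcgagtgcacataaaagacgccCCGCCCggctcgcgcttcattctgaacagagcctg
Id3: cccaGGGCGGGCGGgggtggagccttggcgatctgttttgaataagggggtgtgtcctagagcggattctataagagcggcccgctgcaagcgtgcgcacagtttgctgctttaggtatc
In the full windows of 300 bases, from 250 before to 50 after the start, GGGCGG was found in all 3 and CCAAT in Id1 and Id2, and 33.1% and 37.5% of all 33469 rat windows held these letters. The motifs GGCGCC and CAGAC, letters known from Smad-bound elements, were searched on both strands too. GGCGCC was in none of the 8 windows found for the 10 genes and in 11.0% of all windows, and CAGAC was in those of Bmp4 and Id1 and in 50.1% of all windows. The window of Id4, no member of the 10, held GGCGCC at position 39 after the start. GGCGCC reads the same on both strands and none of the 4 motifs contains another. Bmp2 and Acvr1 had no matched entry, and bases further from the start were not searched for any gene.

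Compared with each other, the mimics with the same seed differed in fewer of the genes than miR-25 did from either of them. The same held among all tested genes, so it was not particular to these genes. For miR-93 over miR-106b, 1 of the 8 genes was higher and 0 were lower, where 7.30% of all tested genes were higher and 8.21% lower. For miR-25 over miR-106b 3 were higher and 2 lower, against a background of 22.1% and 23.0%. For miR-25 over miR-93 5 were higher and 3 lower, against a background of 22.1% and 23.0%, so that all 8 tested genes passed 1.3-fold. Higher with miR-25 than with miR-93 were Bmpr1a (0.67), Bmpr2 (0.62), Acvr1 (0.54), Id1 (0.82) and Id3 (0.57), and lower were Bmp4 (-0.67), Bmp6 (-0.84) and Id2 (-0.56). All 3 receptors were thus on the higher side and both tested ligands on the lower. The 3 pairwise comparisons and the 3 against the control share libraries and are not independent.

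The rest of the pathway was read from a list of 53 other genes, of which 44 were in the table and 31 were tested in each comparison with the control. With miR-106b 0 rose and 7 fell, with miR-93 5 rose and 7 fell, and with miR-25 7 rose and 5 fell. Of all tested genes 11.9% rose and 12.7% fell in the miR-106b comparison, 15.1% rose and 15.6% fell in the miR-93 comparison, and 19.3% rose and 22.6% fell in that of miR-25, and these shares are also the background of the counts by role that follow. The counts with miR-25 lay near that background. The medians of the 31 log2 fold changes were -0.15, -0.10 and 0.20 in that order, beside the medians near 0 of all tested genes.

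**Figure D3:**
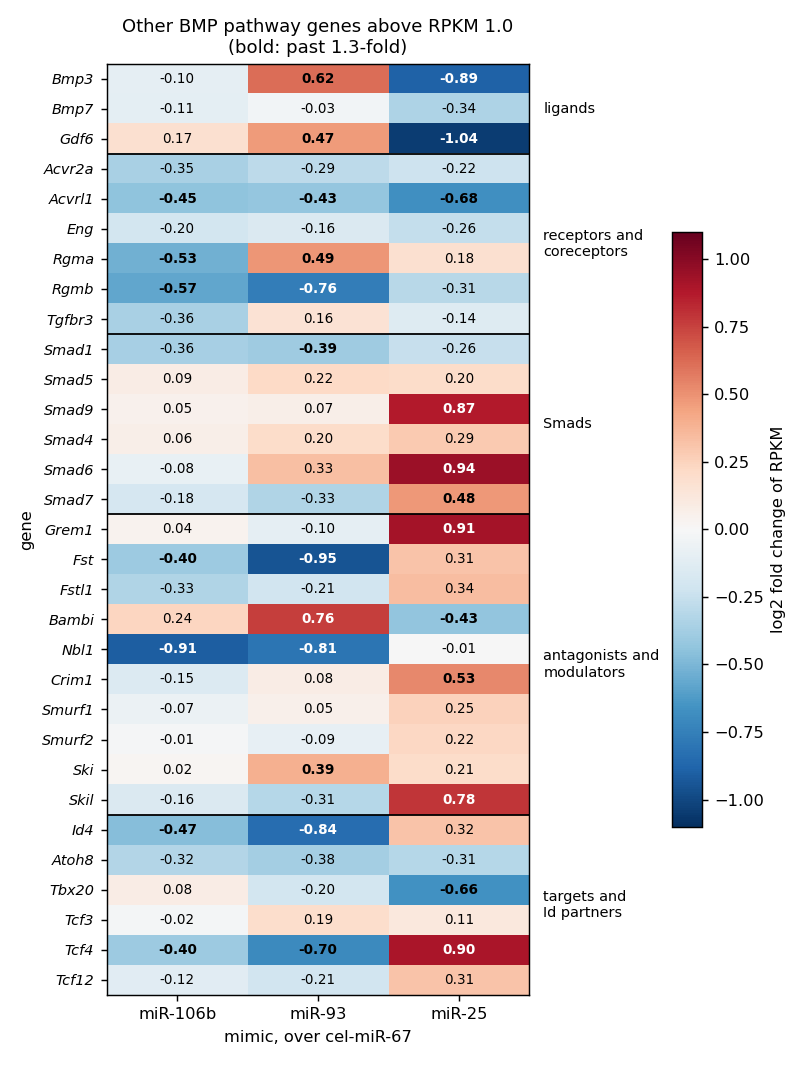
Log2 fold change of RPKM, each mimic over cel-miR-67, of the 31 tested pathway genes outside the 10, grouped by role; red is higher, blue is lower, and values past 1.3-fold are in bold. With miR-25 Smad6 (0.94), Smad9 (0.87) and Smad7 (0.48) are higher and Bmp3 (-0.89) and Gdf6 (-1.04) are lower.

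The most abundant other ligand was Bmp7, at RPKM 17.0 in the control and within 1.3-fold of it with every mimic. Of 3 tested, 2 rose with miR-93 and 2 fell with miR-25, and they were the same genes. Bmp3, which acts against other BMPs, stood at RPKM 3.68 in the control, 3.43 under miR-106b, 5.64 under miR-93 and 1.98 under miR-25. Gdf6, a ligand of joint and skeletal development, stood at 9.04, 10.2, 12.5 and 4.39 in the same order, and fell by 1.04 (-1.22 to -0.87) with miR-25. Of 6 other receptors and coreceptors, 3 fell with miR-106b, 1 rose and 2 fell with miR-93, and 1 fell with miR-25. The coreceptor Rgmb fell by 0.57 with miR-106b and by 0.76 with miR-93, and was at -0.31 (-0.72 to 0.10) with miR-25.

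Among the 6 Smads of the pathway, 0 passed 1.3-fold with miR-106b, 1 fell with miR-93 and 3 rose with miR-25, where 19.3% of all tested genes rose. Smad6, an inhibitory Smad induced by BMP signals, stood at RPKM 12.5 in the control, 11.8 under miR-106b, 15.8 under miR-93 and 24.1 under miR-25, and rose by 0.94 (0.64 to 1.25) with miR-25 on 300 reads against 130. Smad7, the other inhibitory Smad, stood at 3.34 in the control and at 4.65 with miR-25, a rise of 0.48 (0.28 to 0.68). Their sum was 1.81 times that of the control with miR-25, beside 1.51 times for the Id genes. Smad6, on a gene length of only 457 bases, made up 79.0% of the inhibitory Smad sum in the control and 83.8% with miR-25. Smad9, a receptor-activated Smad, rose by 0.87 (0.69 to 1.05), from 3.00 to 5.48. The receptor-activated Smads Smad1, Smad5 and Smad9 together were at 1.11 times the control. Smad1 fell by 0.39 (-0.55 to -0.22) with miR-93.

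Of 10 antagonists and modulators, 2 fell with miR-106b, 2 rose and 2 fell with miR-93, and 3 rose and 1 fell with miR-25. Nbl1, a secreted BMP antagonist, stood at RPKM 6.63 in the control, 3.54 under miR-106b, 3.79 under miR-93 and 6.60 under miR-25, and fell by 0.91 and 0.81 with the mimics that share a seed. Fst, which encodes the ligand trap follistatin, fell by 0.40 and 0.95 with the same mimics. Grem1, the antagonist gremlin, rose by 0.91 (0.66 to 1.17) with miR-25, and Skil, a repressor that binds Smads, rose by 0.78 (0.68 to 0.89). Bambi, a pseudoreceptor that is itself a target of BMP signals, rose by 0.76 (0.61 to 0.91) with miR-93 and fell by 0.43 (-0.61 to -0.25) with miR-25.

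Of 6 other targets and Id partners, 2 fell with miR-106b, 2 fell with miR-93, and 1 rose and 1 fell with miR-25. Tcf4, an E protein that Id proteins bind, stood at RPKM 6.43 in the control, 4.86 under miR-106b, 3.95 under miR-93 and 12.0 under miR-25. It had the same order of libraries as Id4 and rose by 0.90 (0.74 to 1.05) with miR-25. Tbx20, a cardiac transcription factor, fell by 0.66 (-0.74 to -0.58) with miR-25, from 48.9 to 30.9.

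**Figure D4:**
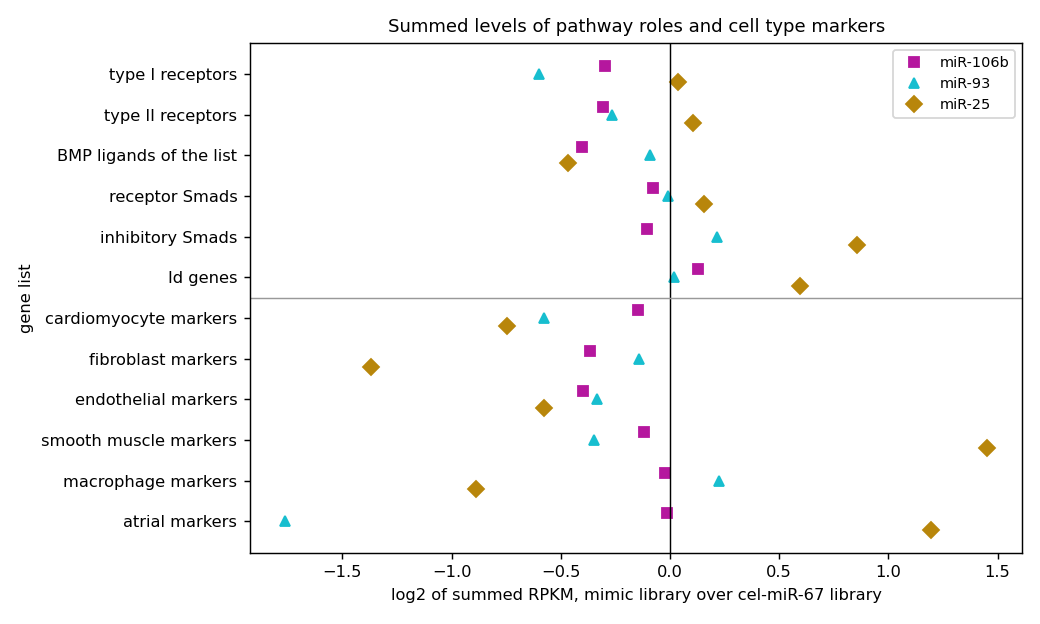
Log2 of the summed RPKM of each pathway role (above the line) and each cell type marker list (below it) in a mimic library over the cel-miR-67 library. With miR-25 the inhibitory Smads and the Id genes lie above 0 beside the smooth muscle markers and the atrial markers, whose rise is that of Nppa (1860 to 4425), and the ligands lie below 0 beside the cardiomyocyte, fibroblast, endothelial and macrophage markers.

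The miR-25 library, in which Id1, Id3, Smad6 and Smad9 rose, also stood apart in cell type markers. All 8 cardiomyocyte markers were past 1.3-fold lower there, with summed RPKM from 19690 in the control to 11724. Of the 5 smooth muscle markers 4 rose and 1 fell with miR-25, and their sum was 2.74 times that of the control with miR-25, and 0.922 and 0.786 with miR-106b and miR-93. The sum of the 6 atrial markers was 2.29 times that of the control with miR-25 and 0.295 with miR-93, which followed Nppa, at RPKM 1860 in the control, 4425 with miR-25 and 261 with miR-93. Of 5 tested atrial markers 1 rose and 1 fell with miR-25 (median 0.04), and 3 rose and 2 fell with miR-93 (median 0.64), among them Myl7, at 18.8 in the control, 11.6 with miR-25 and 155 with miR-93. The sum of the 5 macrophage markers was 0.540 with miR-25 and 1.17 with miR-93. The endothelial markers summed to between 5.75 and 8.56 in all libraries, with 3 of them above RPKM 1.0 in each. The part of these cells in the Id and Smad values was not tested.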

How the data were processed

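RNA was sequenced as single 50-base reads, with 1 library per mimic. Per the methods, the authors trimmed reads with Cutadapt, aligned them to Rnor_6.0 with STAR (2.7 in the submitters' processing notes), rounded the gene counts and deposited RPKM values made with edgeR. The counting program is not given in the sources used here. The mimic dose is given as 25 nM in the treatment text and as 25 mM elsewhere. Groups came from the labels.

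RPKM values carry no test for 1 library per group. Because the gene counts had been rounded to whole numbers, they were recovered from the ratios of each gene's RPKM between libraries, for all 15731 genes. These rounded counts are called reads here, and the intervals treat them as whole reads. For 654 genes a common factor was multiplied back. Between 15175185 and 18797234 reads per library lay on listed genes. Fold changes used no pseudocount. Intervals are Clopper-Pearson intervals of the share of reads (95%), and levels have exact Poisson intervals. The recovery and the intervals were tested on simulated data. The simulated reads were Poisson draws with the recovered lengths and library sizes, so they could not check the effect of rounding or variation between cultures.

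The 10 genes, the other pathway genes and the marker lists were chosen with earlier results of these data known. From the other pathway list the text names every gene past 1.5-fold with any mimic and above RPKM 2.0 in both libraries. Bmp7, Smad1, Smad7, Acvr2a and Acvrl1, and the markers Actc1, Myl2, Nppa and Myl7, were named after their values were seen. Acvr2b, Bmpr1b and Smad5 are named as parts of the sums by role, and Smad4 only as background. Genes of similar profile were the 3 nearest to Bmpr2 and to Id1. Alternatives were an RPKM cutoff of 2.0 or 1.0 in either library, folds of 1.5 and 2, pseudocounts of 0.1 and 1, median centring, scaling to reads on listed genes and an interval without 0. Sequences are from RefSeq (GRCr8), where 8 of 10 genes had a promoter entry. cel-miR-67 is named only. The table gives symbols and Ensembl identifiers and no positions. The software was Python 3.11.15 with scipy 1.17.1, numpy 2.4.6, matplotlib 3.10.9 and pandas 2.3.3.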

Additional observations from a re-analysis of the deposited data

How the results depend on the processing

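Counts of the 10 genes against the control moved as follows. At 1.5-fold the miR-106b rises went from 1 to 0, the miR-93 rises from 1 to 0 and its falls from 2 to 1, and the miR-25 rises from 2 to 1. At 2-fold 0 genes rose or fell with miR-106b and miR-93, and with miR-25 1 rose (Id1) and 0 fell. With a pseudocount of 1 the miR-106b rises were 0 and the miR-93 falls 1. An RPKM cutoff of 2.0 left 1 fall with miR-93, and a cutoff passed in either library gave 4 rises with miR-25. Scaling to the reads on listed genes added 0.08 to every log2 fold change with miR-106b and 0.15 to those with the other mimics, and gave 2 rises and 1 fall with miR-93. The rises then made up 64.7%, 72.3% and 64.8% of all called genes, beside 48.2%, 49.2% and 46.1% without it. In the other pathway list, 1.5-fold left 1 fall with miR-106b and 2 rises with miR-93, and an RPKM cutoff of 2.0 left 3 falls with miR-25. Between mimics, 1.5-fold left 0 lower for miR-25 over miR-106b and 3 higher for miR-25 over miR-93. In all, 63 of 84 recomputed counts stayed the same or within 1.5 times, and 21 moved further. Of 120 recomputed log2 fold changes of the 10 genes, 113 moved by less than the counting interval, and the other 7, all under the scaling to listed genes, were of Bmpr1a, Bmpr2 and Id3.

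No paired analysis was possible because each mimic had 1 library. The intervals hold counting error and no variation between cultures, which was not measured. Bmp2 and Bmp10 rest on few reads.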
